A study of Mus musculus with 7 samples.

Results

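Trem2, Tyrobp and the Fc gamma receptors form a small family of myeloid signalling genes, and 9 of them were followed in the retinal pigment epithelium (RPE) of the Mfrp rd6 mouse. They were chosen by symbol, with earlier results of these data known. They are the adaptors Tyrobp and Fcer1g, the receptors Trem2, Fcgr1, Fcgr2b, Fcgr3 and Fcgr4, and the kinase Syk with the phospholipase Plcg2. All 9 were measured, each by 1 probe set, out of 19938 genes on the array. Total RNA of 7 samples was hybridised to 1 whole-transcript array each, 3 from Mfrp rd6 mutants and 4 from wild-type mice, all on the C57Bl/6J background. The age field of the labels gives 12 weeks for the mutants and 8 weeks for wild type, which leaves age and genotype confounded, while the growth protocol gives 12 weeks to Mfrp rd6 replicate 1 alone. Mfrp encodes a membrane protein of the RPE, and the recessive rd6 allele, carried in every cell of the animal, leads to retinal degeneration. The tissue was shaken off opened eyecups, so a sample holds whatever came loose with the RPE. The labels do not say how many animals stand behind a sample, and the p-values therefore speak of the spread among these arrays only, some of which may be technical.

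Cells of the myeloid line read their surroundings through receptors that have no signalling tail of their own. Such a receptor is held in the membrane by an adaptor, Tyrobp (DAP12) or Fcer1g (the Fc receptor gamma chain), whose tail carries an immunoreceptor tyrosine-based activation motif, or ITAM. When the receptor is engaged, kinases of the Src family phosphorylate the ITAM, Syk docks on it, and Plcg2 is among the enzymes that pass the signal on. Trem2 binds lipids and lipoproteins and works through Tyrobp. The activating Fc gamma receptors bind antibody and work through Fcer1g, while Fcgr2b carries an inhibitory motif that recruits phosphatases. In the eye these genes are known from microglia and macrophages.

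Values are log2 signals after RMA, the authors' normalization, and a change is the Mfrp rd6 mean minus the wild-type mean on that scale. The arrays had medians of 6.52 to 6.58, and replicates correlated at 0.991 to 0.994 across probe sets. The RPE markers on these arrays, 20 genes, had a mean of 11.39 ± 0.04 in Mfrp rd6 (SD, n = 3) and 11.46 ± 0.06 in wild type (SD, n = 4), with Rpe65, the isomerase of the visual cycle, at 12.64 and 12.87. Skeletal muscle transcripts set some arrays apart. The mean of 16 muscle markers was 8.71, 8.98 and 8.06 in the 3 Mfrp rd6 arrays, against 6.80, 6.97, 8.02 and 7.07 in wild-type replicates 1 to 4. Among the mutants replicate 2 read highest, and among the wild types replicate 3, so results are also given without this pair of arrays and with the muscle mean entered in the fit.

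Of the 9 genes, 6 were higher in Mfrp rd6 and 0 lower at an adjusted p under 0.05 (limma, Benjamini-Hochberg over all genes), where 2.15% of all genes tested were called, 1.34% higher and 0.813% lower. The risers were Tyrobp, Fcer1g, Trem2, Fcgr2b, Fcgr3 and Fcgr1, in order of size. In these 6 genes every mutant array lay above every wild-type array, a pattern found in 5.52% of all genes. Syk, Plcg2 and Fcgr4 did not pass. The median change was 1.38 for the 9 genes and -0.02 for all genes. The 9 genes and the lists below were chosen with earlier results of these data known, so such counts are descriptions only. In these bulk samples a change in the number of cells of a type and a change in RNA per cell cannot be told apart.

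**Figure D1:**
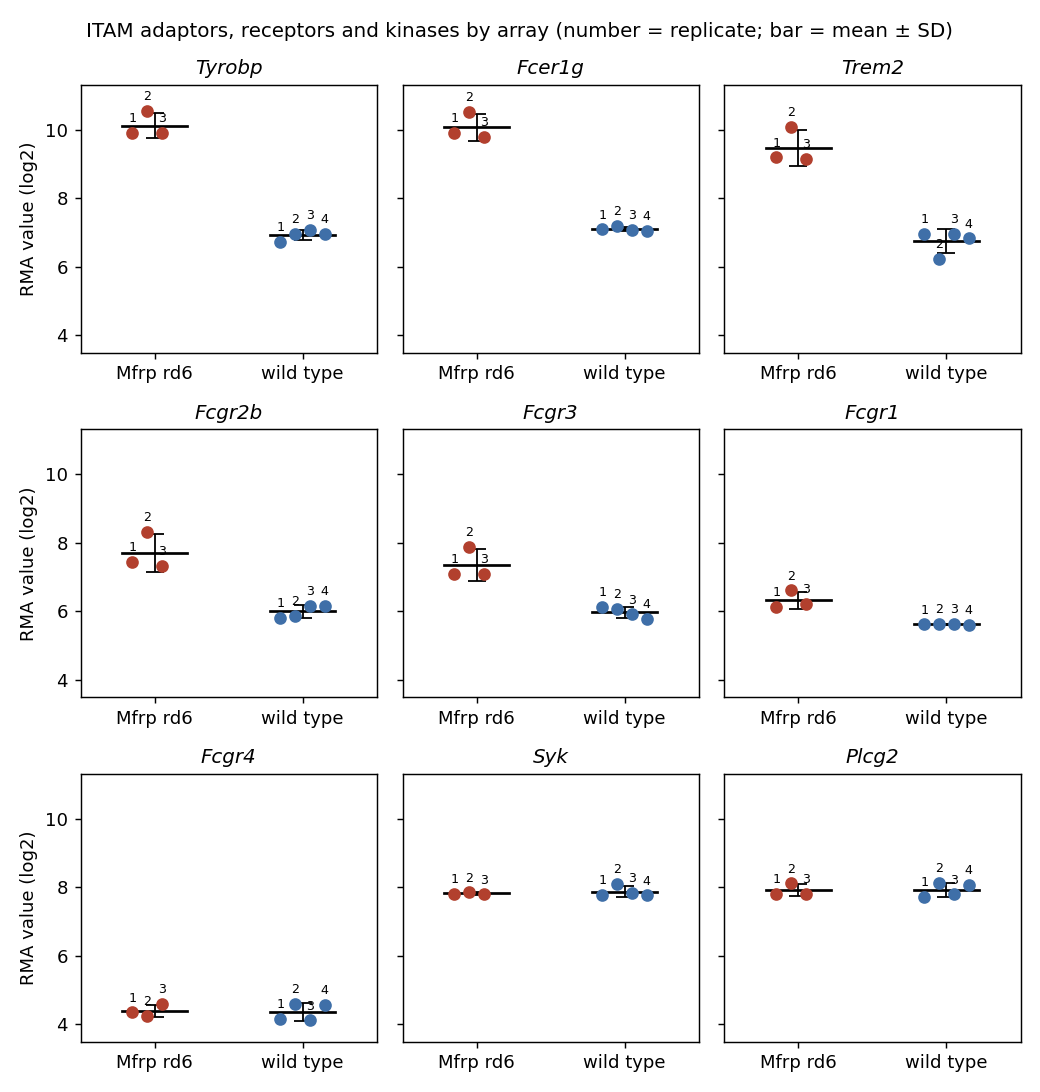
RMA value (log2, vertical axis) of the 9 genes in each of the 3 Mfrp rd6 arrays and the 4 wild-type arrays, with replicate numbers; the bar and whiskers are mean ± SD. Tyrobp, Fcer1g and Trem2 stand at 9.15 or above in every mutant array and at 7.19 or below in every wild-type array, while Syk, Plcg2 and Fcgr4 overlap.

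Both adaptors rose by about the same amount. Tyrobp read 9.89, 10.54 and 9.91 in Mfrp rd6 replicates 1 to 3, against 6.72, 6.97, 7.08 and 6.96 in wild-type replicates 1 to 4. The lowest mutant array lay far above the highest wild-type array, and mutant replicate 2 was the highest. The group means were 10.11 ± 0.37 in Mfrp rd6 (SD, n = 3) and 6.93 ± 0.15 in wild type (SD, n = 4), a change of 3.18 (SE 0.16) or 9.07-fold (limma, adjusted p = 8.64e-06). Of all genes tested, 2 had a larger positive change. Fcer1g read 9.90, 10.51 and 9.78 in the mutants, against 7.09, 7.19, 7.07 and 7.05 in wild type. Its wild-type arrays were tightly grouped, with an SD of 0.06, and mutant replicate 2 again read highest. The change of Fcer1g was 2.96 (SE 0.15), or 7.80-fold (limma, adjusted p = 1e-05). The rise of Tyrobp exceeded that of Fcer1g by 0.22, and array by array this difference overlapped between the genotypes. For both genes p was 0.0286 when the genotype labels were permuted exactly (two-sided, 35 arrangements), the smallest value this design can give.

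Trem2, the lipid receptor that Tyrobp serves, rose with them. It read 9.19, 10.08 and 9.15 in the mutants, against 6.97, 6.23, 6.97 and 6.83 in wild type. The groups were separate by more than 2 log2 units, with mutant replicate 2 highest and wild-type replicate 2 lowest of all. The change was 2.72 (SE 0.25, 95% confidence interval 2.17 to 3.27), or 6.60-fold (limma, adjusted p = 0.000415). The rise of Trem2 fell short of that of Tyrobp by 0.46, a difference that overlapped between the genotypes array by array. Trem2 and Tyrobp also passed when Mfrp rd6 replicate 2 and wild-type replicate 3 were both left out, at 2.49 and 3.02 (limma, adjusted p = 0.00159 and 3.85e-05).

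The Fc gamma receptors differed in how far they rose, and 1 did not pass. Fcgr2b, the inhibitory receptor, had the largest rise of the 4. It read 7.45, 8.32 and 7.32 in the mutants, against 5.82, 5.86, 6.15 and 6.16 in wild type, with no overlap and with mutant replicate 2 well above the other mutants. The change was 1.70 (SE 0.21), or 3.25-fold (limma, adjusted p = 0.00378). Fcgr3, the activating low-affinity receptor, read 7.09, 7.88 and 7.09 in the mutants, against 6.14, 6.07, 5.91 and 5.79 in wild type. Its groups did not overlap either, and its change was 1.38 (SE 0.18), or 2.60-fold (limma, adjusted p = 0.00517). The genes for Fcgr2b and Fcgr3 are known to be nearly alike over the parts that code for the antibody-binding domains, and how far their probe sets read each other's transcript was not tested.

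Fcgr1, the high-affinity receptor, rose less. It read 6.12, 6.61 and 6.22 in the mutants, against 5.62, 5.63, 5.64 and 5.61 in wild type. The change was 0.69 (SE 0.11), or 1.62-fold (limma, adjusted p = 0.0122), and the wild-type arrays agreed to an SD of 0.01. Those wild-type values lay close to the lower quartile of all gene levels, 5.50, where RMA compresses changes. Fcgr4, an activating receptor of the mouse, read 4.35, 4.26 and 4.59 in the mutants, against 4.17, 4.60, 4.12 and 4.56 in wild type. These groups overlapped fully, with a change of 0.04 (95% confidence interval -0.27 to 0.35; limma, adjusted p = 0.937). All 7 arrays lay below that lower quartile, so a change of a rare transcript may not be detectable with this probe set.

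The receptors' balance was described array by array as the mean of the activating Fcgr1, Fcgr3 and Fcgr4 minus Fcgr2b, set to 0 at the wild-type mean. This difference was -0.92, -1.39 and -0.68 in the mutants, against 0.17, 0.25, -0.25 and -0.16 in wild type. The mean change was 0.70 over the activating receptors, Fcgr4 included, and 1.70 for Fcgr2b, a difference of -1.0. It was -0.67 when the dim Fcgr4 was left out and -1.34 when Fcgr3 was left out. For Fcgr3 alone against Fcgr2b it was -0.32, with overlapping arrays. For Fcgr1 alone it was -1.01, and the arrays of the 2 genotypes did not overlap. Fcgr1 in wild type lay close to the lower quartile of gene levels and Fcgr4 below it, where RMA compresses changes. How far this compression shaped the difference was not tested.

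The proximal enzymes showed no detectable change. Syk, the kinase that docks on phosphorylated ITAMs, read 7.81, 7.85 and 7.79 in the mutants, against 7.77, 8.10, 7.83 and 7.76 in wild type. All mutant values fell inside the wild-type range, and the change was -0.05 (95% confidence interval -0.25 to 0.16; limma, adjusted p = 0.866). Plcg2, the phospholipase C that makes the second messengers of this route, read 7.80, 8.11 and 7.81 in the mutants, against 7.71, 8.13, 7.79 and 8.07 in wild type. Its ranges also overlapped, with a change of -0.02 (95% confidence interval -0.29 to 0.26; limma, adjusted p = 0.969). For the whole sample, both intervals exclude a rise of the size seen for Fcgr1, 0.69. In wild type Syk and Plcg2 averaged 7.86 and 7.93, above the 6 risers, which averaged 5.62 to 7.10. Which cells gave this signal was not tested, so a rise in a minority of them may not be detectable.

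**Figure D2:**
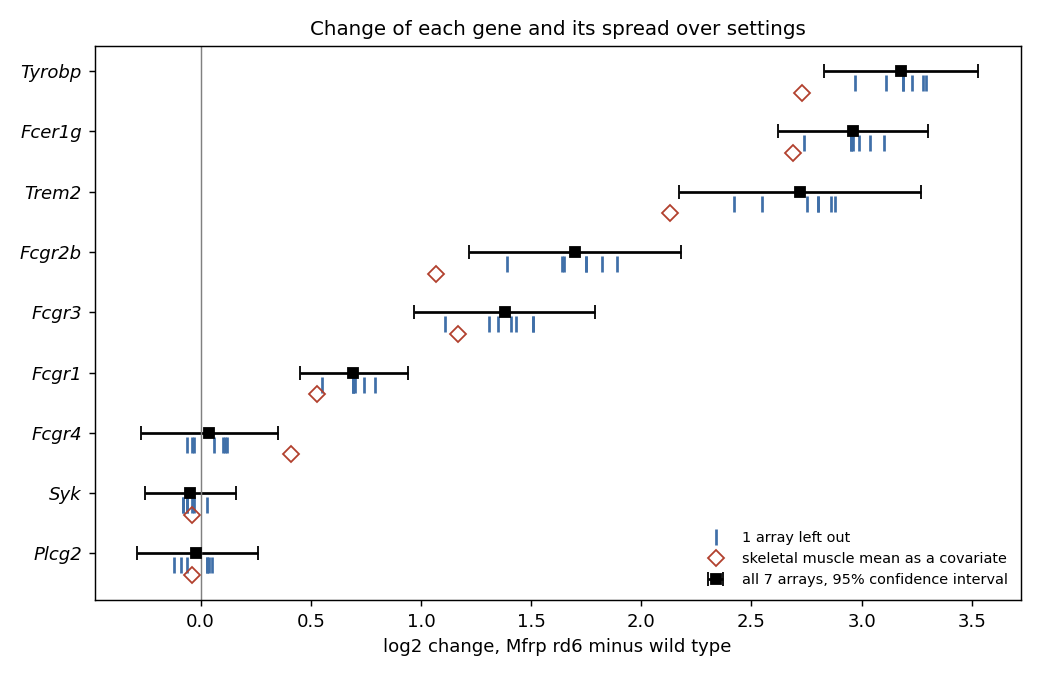
Log2 change of each gene, Mfrp rd6 minus wild type (horizontal axis), with its 95% confidence interval over all 7 arrays; ticks are the changes with 1 array left out and diamonds those with the muscle mean in the fit. The changes run from 3.18 for Tyrobp to 0.69 for Fcgr1, and those of Fcgr4, Syk and Plcg2 lie at 0.04, -0.05 and -0.02.

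The 6 risers passed whichever of the 7 arrays was left out, with the lowest change at 2.97 for Tyrobp, 2.74 for Fcer1g, 2.42 for Trem2, 1.39 for Fcgr2b, 1.11 for Fcgr3 and 0.54 for Fcgr1. In the fits with 1 array left out, 1.06% to 1.63% of all genes were called, the background for such counts below. The fit without Mfrp rd6 replicate 1 compares equal ages under the growth protocol, and all 6 passed in it. With the skeletal muscle mean entered in the fit only Tyrobp and Fcer1g passed, at 2.73 and 2.69 (limma, adjusted p = 0.0078 and 0.0127). In that fit the values were 2.13 for Trem2 (adjusted p = 0.149), 1.07 for Fcgr2b (adjusted p = 0.423), 1.17 for Fcgr3 (adjusted p = 0.406) and 0.53 for Fcgr1 (adjusted p = 0.536). Of all genes, 0.246% were called in that fit. For Trem2 the SE was 0.42 in it and 0.25 without the muscle mean, and the change was 2.13 and 2.72. The muscle mean is itself higher in the mutants, and why the calls were lost was not tested.

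Promoter sequence is shown for 4 of the receptors and for Fcer1g because some of these genes rose together and a neighbour in their cluster did not. A purine-rich element bound by Spi1 (PU.1), a transcription factor of the myeloid line, is a known feature of such promoters, and the letters GAGGAAG were searched on both strands. RefSeq windows of 250 bases before to 50 bases after the annotated start (GRCm38.p6) were matched for 8 of the 9 genes, all but Tyrobp. The letters were found in 4 of the 8, Trem2, Fcgr1, Fcgr3 and Fcgr4, and in 13.6% of all 32851 windows. In each of these 4 genes the match lay on the opposite strand, within the 100 bases before the start. In that stretch 4.72% of all windows hold the letters on either strand. Below, those 100 bases are printed 5′ to 3′ on the strand of the gene, with the match in capitals as its reverse complement CTTCCTC. They are given for the 4 genes and for Fcer1g, which rose more than any of them and has no match to GAGGAAG. The shorter letters GGAA were in 96% of all windows, 7 times in that of Fcer1g and 5 times in that of Fcgr2b.
Trem2, chr17:48346301-48346400, plus strand: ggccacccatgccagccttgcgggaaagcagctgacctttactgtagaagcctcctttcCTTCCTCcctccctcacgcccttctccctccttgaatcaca
Fcgr1, chr3:96293970-96294069, minus strand: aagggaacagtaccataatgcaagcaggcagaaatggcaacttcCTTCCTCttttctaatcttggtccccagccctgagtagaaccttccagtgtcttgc
Fcgr3, chr1:171059404-171059503, minus strand: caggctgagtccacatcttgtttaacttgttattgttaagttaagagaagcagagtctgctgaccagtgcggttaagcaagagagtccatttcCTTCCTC
Fcgr4, chr1:171018826-171018925, plus strand: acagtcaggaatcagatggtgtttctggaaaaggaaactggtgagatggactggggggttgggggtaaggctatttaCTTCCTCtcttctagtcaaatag
Fcer1g, chr1:171234350-171234449, minus strand: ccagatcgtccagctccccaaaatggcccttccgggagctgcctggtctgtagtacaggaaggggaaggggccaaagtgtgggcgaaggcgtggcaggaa
The match began 41 bases before the start in Trem2, 56 in Fcgr1, 23 in Fcgr4 and 7 in Fcgr3, counted from the first of 2 windows that RefSeq gives for Fcgr3. The longest run that Trem2 and Fcgr3 share in these stretches is 11 bases, and it contains the match. So do the runs of 10 bases that Fcgr1 shares with Fcgr3 and with Trem2. The 4 genes were picked for the match, so any pair of them shares at least its 7 bases. The longest runs shared with Fcer1g, which has no match, were 6 or 7 bases. Among the 4 genes with the letters, Trem2, Fcgr3 and Fcgr1 rose by 2.72, 1.38 and 0.69, and Fcgr4 was at 0.04 without passing. Fcer1g and Fcgr2b rose without them. Spi1 itself read 6.88, 7.20 and 6.88 in the mutants, against 6.15, 6.10, 6.22 and 6.16 in wild type, a change of 0.83 (SE 0.09; limma, adjusted p = 0.00146). Spi1 is also on the list of microglia and macrophage markers used below. Whether it acts on these promoters in these samples was not tested.

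Of the measured genes within 2 places of the adaptors and receptors on the chromosome, only Fcgr2b and Fcgr3 passed, and both are among the 9 genes. As 2.15% of all genes were called, so small a set would hold few calls in any case. Hjv, 2 places from Fcgr1 on chromosome 3, was at 1.10 and just missed the threshold (limma, adjusted p = 0.0534). On chromosome 17 Trem2 sits in a cluster of related receptors, and Treml1, the next gene on one side, and Treml2, the second on the other, were at -0.02 and 0.35 (limma, adjusted p = 0.955 and 0.204). Trem1 and Trem3 of the same family were dim, at 4.31 and 4.47 in the mutants and 4.37 and 4.51 in wild type on average, with changes of -0.06 and -0.04 (adjusted p = 0.819 and 0.877). On chromosome 7 the next gene to Tyrobp is Hcst (DAP10), an adaptor with a different tail, which read 6.00 on average in the mutants and 5.94 in wild type (change 0.06, adjusted p = 0.804). On chromosome 1 Fcgr4, which did not pass, lies between Fcgr2b and Fcgr3, which rose. Fcrla, an Fc receptor-like gene on the other side of Fcgr2b, was at -0.03 (adjusted p = 0.896).

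The genes most like each adaptor and Trem2 over the 7 arrays were found by the root mean square difference of profiles centred on their own mean, in log2 units. The profiles were not scaled, so this distance favours genes with a similar change between the genotypes. Those found had changes of 2.45 to 3.41, so their likeness mostly restates that change. For Tyrobp they were C1qb (0.119), C1qc (0.124), Ly86 (0.153), Fcer1g (0.157) and Cst7 (0.161). For Fcer1g they were C1qb (0.117), Tyrobp (0.157), C1qa (0.165), Cst7 (0.188) and C1qc (0.210). For Trem2 they were P2ry13 (0.142), C1qa (0.235), C1qb (0.294), Fcer1g (0.303) and Mpeg1 (0.310). C1qa, C1qb and C1qc encode the chains of the first complement component, P2ry13 a purinergic receptor of microglia and Mpeg1 a pore-forming protein of macrophages. P2ry13 shared with Trem2 a low value in wild-type replicate 2, 1.60 below its own mean against 1.69 for Trem2.

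A further list was drawn up for receptors that pair with these adaptors or signal to Syk in a like way. It also held the scavenger receptors Msr1 and Marco, which are known for neither and were at 0.06 and 0.10 without passing. The coupling of the other entries, Treml1 and Treml2 among them, was not tested, so the counts may describe a mixed set. Among 27 measured, 3 rose and 0 fell, where 1.34% of all genes rose. The median change was 0.05 against -0.02 for all genes, and 15 of the 27 lay below the lower quartile of gene levels. Clec7a (dectin-1), which binds fungal glucans and signals to Syk through its own tail, read 7.05, 7.51 and 6.78 in the mutants, against 5.55, 5.57, 5.70 and 5.59 in wild type, a change of 1.51 (adjusted p = 0.00067). Cd300c2, an activating receptor of the Cd300 family, rose by 0.95 (adjusted p = 0.0162), and Clec5a, a lectin-like partner of Tyrobp, by 0.51 (adjusted p = 0.014) from a dim level. Of the 27, 1 rose without Mfrp rd6 replicate 1 and 2 without Mfrp rd6 replicate 2, and Clec7a passed whichever array was left out. Among 8 other Fc receptors and Fc-binding proteins 1 rose and 0 fell, with a median of -0.01. The riser was Fcrls, an Fc receptor-like protein known as a microglial marker in the mouse, at 7.36, 7.55 and 6.87 in the mutants, against 5.43, 5.40, 5.50 and 5.04 in wild type (change 1.92, adjusted p = 0.000264). Pigr, the carrier of polymeric antibody across epithelia, was at 0.05 (adjusted p = 0.856), and the cytosolic Fc receptor Trim21 at -0.03 (adjusted p = 0.91).

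Among 37 adaptors, kinases and enzymes that act with or after Syk, 5 rose and 3 fell, where 1.34% of all genes rose and 0.813% fell. The median change was 0.06. Lcp2 (SLP-76), a scaffold that Syk phosphorylates, read 7.76, 8.19 and 7.76 in the mutants, against 6.49, 6.82, 6.79 and 6.74 in wild type, a change of 1.19 (SE 0.12, adjusted p = 0.00112). Vav1, an exchange factor for Rac, rose by 0.93 (adjusted p = 0.0107) and Abi3, an actin regulator of microglia, by 0.63 (adjusted p = 0.00263). Btk, a Tec-family kinase that activates Plcg2, rose by 0.57 from a dim level (adjusted p = 0.0464) and Rac2, the Rac protein of blood cells, by 0.39 (adjusted p = 0.0194), and each passed in 2 of the 7 fits with an array left out. Rasgrp3, an exchange factor for Ras, went the other way: it read 9.49, 9.64 and 9.24 in the mutants, against 10.34, 10.57, 10.71 and 10.29 in wild type, with no overlap and a change of -1.02 (SE 0.13, adjusted p = 0.00322). It passed in all 18 alternatives. Bcl10, which links immune receptors to NF-kappa B, fell by 0.46 (adjusted p = 0.00556), and the Src-family kinase Yes1 fell by 0.34 (adjusted p = 0.0464), a call lost whichever array was left out. Of the 37, 3 rose without Mfrp rd6 replicate 2 and without wild-type replicate 3 or 4, and 2 fell whichever array was left out. Rac2, Bcl10 and Yes1 are named here after their values were seen.

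The inhibitory receptors and phosphatases had the highest median of the lists of pathway genes, at 0.21. Of 26 measured, 6 were higher and 0 lower, where 1.34% of all genes were higher and 0.813% lower. Cd33, a sialic acid-binding inhibitory receptor of microglia, read 8.52, 8.97 and 8.19 in the mutants, against 6.88, 6.65, 6.72 and 6.58 in wild type, a change of 1.85 (SE 0.16, adjusted p = 0.000285). Inpp5d (SHIP1), the lipid phosphatase that Fcgr2b recruits, read 7.43, 7.87 and 7.42 in the mutants, against 6.60, 6.51, 6.55 and 6.51 in wild type, a change of 1.03 (SE 0.11, adjusted p = 0.00129). Lilrb4a, an inhibitory immunoglobulin-like receptor, rose by 1.35 (adjusted p = 0.0464) and the membrane protein Ms4a6d by 1.32 (adjusted p = 0.0373), and each passed in 2 of the 7 fits with an array left out. The collagen receptor Lair1 rose by 0.93 (adjusted p = 0.0191), and so did Cd22, a sialic acid-binding receptor named here after its value was seen, by 0.86 (adjusted p = 0.0112). Lair1 passed in 4 and Cd22 in 6 of those fits. Of the 26, 3 rose without Mfrp rd6 replicate 1 and without wild-type replicate 3 or 4, and 4 without wild-type replicate 1. With the muscle mean in the fit, Rasgrp3 was the only gene of these 5 lists to pass. Of 11 genes for ligands of Trem2 and for its shedding and cleavage, 0 rose and 0 fell, with a median of -0.03. Apoe, the apolipoprotein that Trem2 binds, read 13.22 on average in the mutants and 13.05 in wild type (change 0.16, adjusted p = 0.276), and the lysosomal protease Ctsd was at 0.12 (adjusted p = 0.48).

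**Figure D3:**
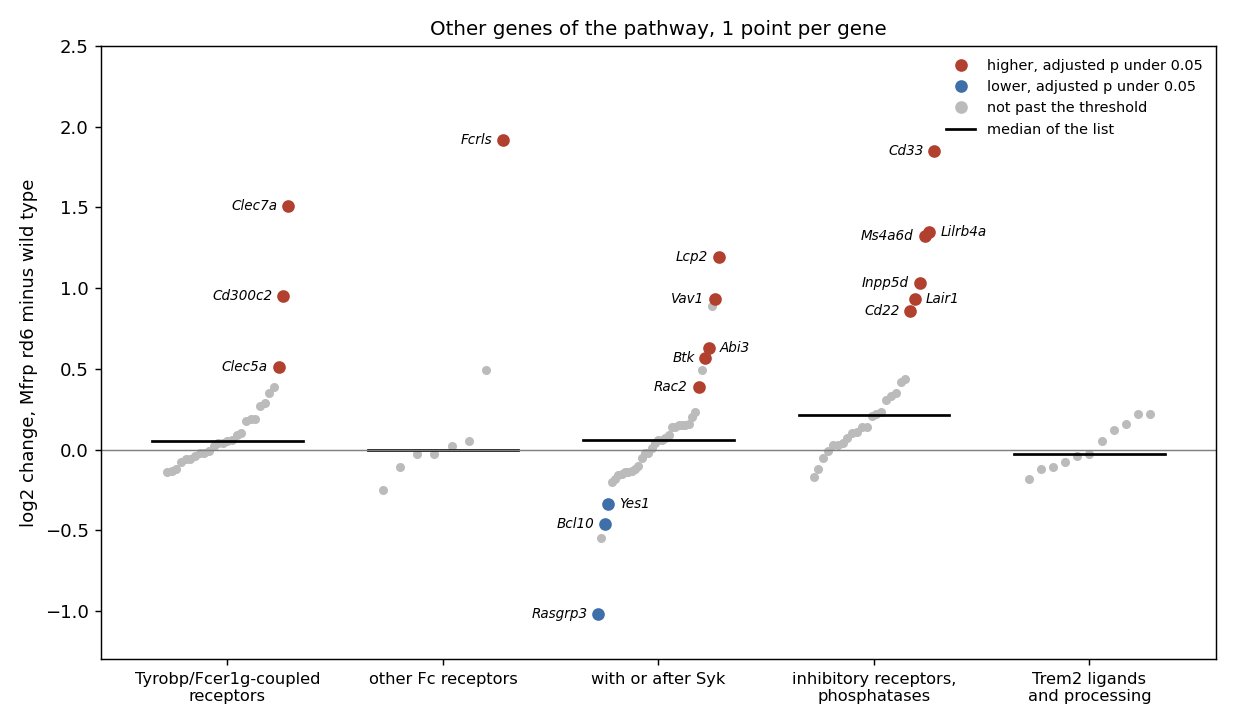
Log2 change, Mfrp rd6 minus wild type (vertical axis), of every measured gene in 5 lists of the pathway, 1 point per gene, with the genes past an adjusted p of 0.05 in colour and named; black lines are list medians. The medians run from -0.03 to 0.21; the highest points are Fcrls (1.92) and Cd33 (1.85), and the lowest is Rasgrp3 (-1.02).

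Markers of microglia and macrophages, with the 9 genes left out of the list, were higher on the same arrays. Of 27 measured, 18 rose and 0 fell, where 1.34% of all genes rose. The median change was 1.20, and 4 lay below the lower quartile of gene levels. Their mean was 8.06, 8.44 and 7.98 in the mutants, against 6.79, 6.79, 6.88 and 6.82 in wild type, so that the groups did not overlap and mutant replicate 2 was again highest. The calls ran from 0.59 for Aif1, an actin-binding protein, to 3.41 for Ly86, a partner of a toll-like receptor homologue, with C1qc (3.11), C1qb (3.09), C1qa (2.90) and P2ry13 (2.63) below it. Of these 27 markers, 1 rose more than Tyrobp, 4 more than Trem2 and 10 more than Fcgr2b. The 9 markers that did not pass were Ptprc (0.52), Csf1r (0.40), Sall1 (0.39), Gpr34 (0.39), Lyve1 (0.13), Itgb5 (0.11), Cd163 (-0.06), Itgam (-0.12) and Mrc1 (-0.17). Whichever array was left out 17 to 19 of the 27 rose, and 6 with the muscle mean in the fit. The part of these cells in the rise of the 6 genes was not tested.

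Markers of other blood cells were read against the same 1.34% of all genes called higher. Of 11 neutrophil markers 2 rose, 0 fell and 9 had a positive change (median 0.09): Csf3r, a growth factor receptor, by 1.30 (adjusted p = 0.00139) and Cxcr2, a chemokine receptor, by 0.43 (adjusted p = 0.041). The 9 that did not pass ran from -0.15 for Ly6g to 0.37 for S100a8. Csf3r passed whichever array was left out and Cxcr2 only without Mfrp rd6 replicate 1. Mast cell and basophil markers (0 of 11 changed, median 0.06), B and plasma cell markers (0 of 7, median 0.02) and red cell and platelet markers (0 of 6, median -0.06) held no call. The brighter mast cell markers Kit and Gata2 were at 0.06 and 0.32, the plasma cell marker Sdc1 and the B cell marker Cd79b at -0.03 and 0.06, and Alas2 of red cells and Itga2b of platelets at -0.05 and 0.00. Ms4a2 and Fcer1a, the other chains of the mast cell IgE receptor that holds Fcer1g, were dim in both groups, with values of -0.08 and -0.01, and Ncr1 of natural killer cells, which also pairs with Fcer1g, was at -0.13. Of 11 NK and T cell markers 1 rose, the T cell receptor chain Cd3e by 0.43 (adjusted p = 0.0193), while Prf1 and Cd8a were at 0.02 and 0.19. Cd3e passed in 3 of the 7 fits with an array left out, and failed without Mfrp rd6 replicate 2 or 3 and without wild-type replicate 1 or 4. S100a8, Ly6g, Ms4a2, Fcer1a and Ncr1 were chosen after their values were seen.

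Among the remaining lists, 2 of 11 endothelial markers rose (median 0.43), the fenestral protein Plvap by 0.57 and the angiopoietin receptor Tek by 0.55 (adjusted p = 0.0459 and 0.0389). Of the 16 skeletal muscle markers 4 rose (median 1.34), the calcium pump Atp2a1 by 2.21, Pvalb by 2.18, Myh4 by 1.84 and Casq1 by 1.61, with adjusted p of 0.0258 to 0.0422. Of 14 rod markers 0 passed, although 0 had a positive change (median -0.53, with Gnat1 at -0.67 and Rom1 at -0.48), and 2 of 20 RPE markers fell (median -0.05), the lactate carrier Slc16a1 by 0.54 and Lrat, which esterifies retinol, by 0.40 (adjusted p = 0.0266 and 0.0277). Without Mfrp rd6 replicate 1 none of the muscle, endothelial or RPE markers passed (0 in each list), while without wild-type replicate 3 there were 13 muscle markers that rose. Of the endothelial markers 2 rose without wild-type replicate 4 and 0 with any other array left out, and no more than 1 RPE marker fell with any array left out. The part of these cells in the rise of the adaptors and receptors was not tested beyond the muscle covariate given above.

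**Figure D4:**
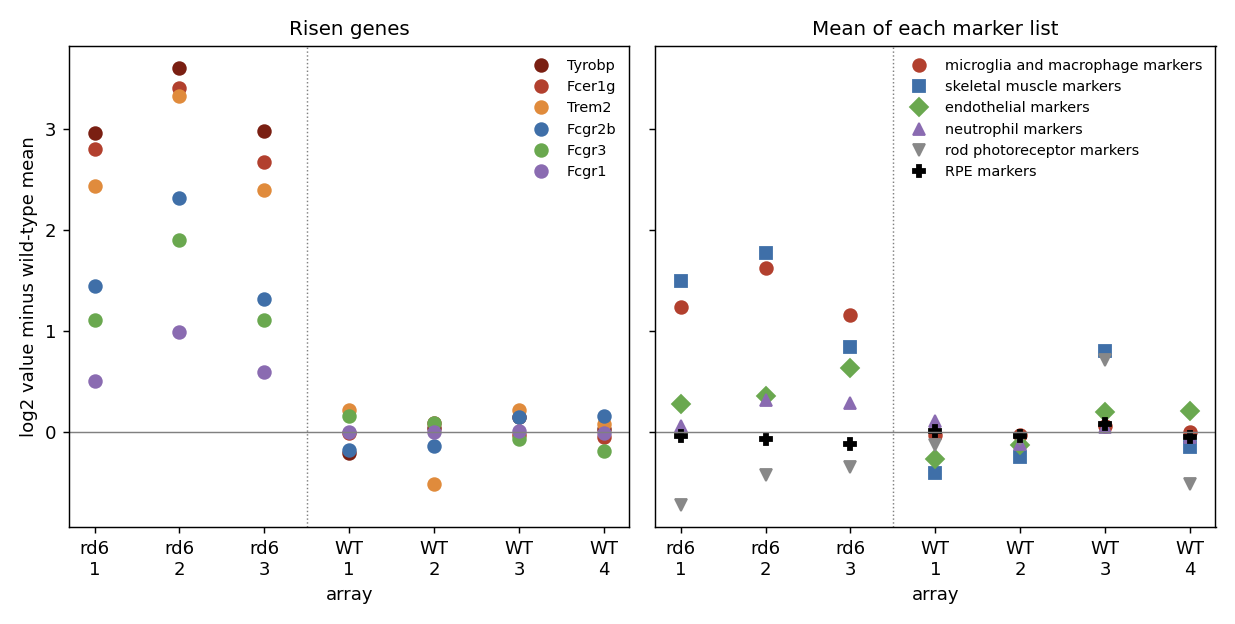
Log2 value minus the wild-type mean (vertical axis) in each array, for the 6 risen genes (left) and for the means of 6 marker lists (right). Mutant replicate 2 is highest for every risen gene, with 3.61 for Tyrobp, and for the microglia and macrophage mean (1.62) and the muscle mean (1.77), while wild-type replicate 3 stands at 0.80 for muscle and 0.06 for microglia and macrophages.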

How the data were processed

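The authors deposited 1 table of log2 values, 1 per probe set and array, made with Affymetrix Expression Console and RMA per the submitters' processing notes; the labels used here state no versions, library files or genome build. RMA corrects background, equalises the arrays and compresses changes of dim probe sets. Scanner values were not used here.

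Of 35556 probe sets, 21789 had 1 gene symbol in the platform annotation, 1621 several and 12146 none; symbols were checked through Entrez identifiers (RefSeq, GRCm38.p6; 21698 matched, 0 updated). The probe set with the highest mean stood for a gene, which left 19938 genes. Samples were grouped by genotype and each gene fitted with limma 3.58.1 in R 4.3.3 (lmFit and eBayes, Mfrp rd6 minus wild type, 5 residual and 4.56 prior degrees of freedom, two-sided), with Benjamini-Hochberg adjustment over all genes, a threshold of 0.05 and no filter; adjusted p-values in the text come from this fit. The number of arrays limits the precision (median SE 0.09).

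The members, the 16 gene lists (271 entries, 252 measured, 5 only on shared probe sets, 14 unmatched) and the tests were chosen with earlier results of these data known. Named by rule were all members, up to 5 changed genes with the largest change in each list, the 2 brightest where fewer than 2 changed, and the 5 nearest profiles of Tyrobp, Trem2 and Fcer1g. Rpe65, Aif1, Spi1, Trem1, Trem3, Msr1, Marco, the microglia markers that did not pass, the chromosomal neighbours and the genes marked so in the text were named after their values were seen. No set test was run. Checked on data simulated from these 19938 genes, the fit recovered 48% of 50 genes changed by 0.5 log2 units and 92% of 50 changed by 1, with 3 false among 125 calls. The simulated noise was drawn for each gene independently, so variation that genes share, such as that of muscle, was absent from it. These rates may therefore not hold for the real arrays. Alternatives were other normalizations, filters, moderation, array weights, probe set rules, a replicate block, a muscle covariate and left-out arrays. Tables and figures were made in Python 3.11.15 (matplotlib 3.10.9, pandas 2.3.3).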

Additional observations from a re-analysis of the deposited data

How the results depend on the processing

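The 9 genes kept their calls in most of the 18 alternatives, and no called change reversed. Tyrobp and Fcer1g passed in all 18, with changes of 2.73 to 3.29 and 2.69 to 3.10. With the muscle mean as a covariate 2 of the 9 genes rose, and Trem2 (2.13, adjusted p = 0.149), Fcgr1 (0.53, adjusted p = 0.536), Fcgr2b (1.07, adjusted p = 0.423) and Fcgr3 (1.17, adjusted p = 0.406) did not pass; the cause was not tested. When every probe set was tested by itself, Fcgr1 (0.69) did not pass (limma, adjusted p = 0.0588); its SE was 0.115 there and 0.109 otherwise, and more tests were adjusted for. Among genes above the median level 3 members rose, since 5 of the 9 were left to test. The count of members was 6 in every fit without 1 array.

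The number of changed genes, 429 with all arrays, was 718 with a variance trend and robust moderation, 679 with array weights, 167 for every probe set, 49 with the muscle covariate and 193 when Mfrp rd6 replicate 2 and wild-type replicate 3 were both left out. Leaving out 1 array gave 211 to 325. With the replicate number as a block it was 225, and 6 members rose. Deviations of same-numbered arrays correlated at -0.303, -0.073 and 0.036, and those of arrays with different numbers at -0.266 to 0.369. With so few arrays these values cannot settle whether the numbers mark a shared batch. The block changed no member's call. The difference between activating and inhibitory Fc receptors was -1.34 without Fcgr3 and -0.67 without Fcgr4, and -1.16 to -0.80 with 1 array left out. Of the 14 rod markers, of which 0 passed with all arrays, 4 were lower with the replicate block and 1 with a variance trend and robust moderation. Of all genes, 1.13% and 3.6% were called in these 2 fits. Dim probe sets, among the 9 genes that of Fcgr4, limit what could be detected.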
